A study of Mus musculus with 13 samples.

Results

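A-to-I editing was described at 263 adenosines of coding sequence, in 77 genes, in RNA of the mouse brain. They were taken from 39309 positions with a reference A that stood in each of the 3 deposited comparisons of a mutant genotype with wild type. A position was kept if it lay in the coding sequence of a GENCODE M21 transcript on its own strand (genome build mm10). The authors had counted bases at positions of a list of editing sites, and a position stood in a comparison only if every library had at least 3 reads and some library had a read with another base. Positions at which every read matched the reference are therefore not among them, which depends on both level and depth. A position without another base in wild type was kept only if each of the 3 mutant genotypes had one. No other limit on level was set, and 9 of the 263 sites had a library at that limit of 3 reads. The editing level of a site is the share of G reads among its A plus G reads, because inosine is read as guanosine.

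The libraries came from whole brains of 13 C57BL/6 mice in 4 genotypes of Adar, which encodes the editing enzyme ADAR1. P195A/+ mice (n = 3, 43 days old) carried the P195A substitution on 1 allele, and P195A/P195A mice (n = 4, 42 or 48 days) carried it on both. P195A/- mice (n = 3, 42 days) carried it opposite a null allele by their short label; a longer label of the same animals writes P195A on both sides and adds AdarKO/+. Wild-type mice (n = 3) were 48, 48 and 74 days old, and each genotype held 1 male. No P195A/+ or P195A/- mouse shared its age with a wild-type mouse, so genotype and age cannot be told apart in those comparisons. The library totals of the gene table ranged from 13539583 to 22399172 estimated counts. The 5 neuronal markers summed to between 3216 and 3903 CPM (counts scaled to library size) in every library, and the liver markers to at most 0.473 CPM. Muscle markers summed to at most 27.1 CPM except in 1 P195A/- library, where they reached 215 CPM.

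ADAR1 and ADAR2 deaminate adenosines within double-stranded RNA, which in coding sequence is often formed between an exon and an inverted stretch of a neighbouring intron. Edited codons can specify another residue, and the sites of neurotransmitter receptors are the best known of these in brain. ADAR2 makes many of the receptor edits, and ADAR1 has a long form, p150, whose Z-nucleic acid binding domain holds P195. Both enzymes are known to disfavour a guanosine on the 5′ side of the adenosine and to favour one on its 3′ side.

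The sites below carry the comparisons or stand at the same position of related genes. Each sequence is the spliced GENCODE M21 transcript (mm10), read 5′ to 3′ with 14 bases on either side, and the capital marks the edited adenosine. The first 3 are the sites that passed a test between genotypes. The next set holds the R/G sites of the AMPA receptor genes and, for Gria2 only, the site in the leucine codon before. After it stand the Q/R sites of glutamate receptors. The last is the Q/R site of Flna, which encodes the actin crosslinker filamin A.
Ccni R75G: gcagtcttttggatAggtttttagctaca
Chtf8 L234L: cgagcatgtggcttAggaccaggtcttgg
Grik2 G615G: agtttctggtttggAgttggagctctcat
Gria2 L763L: aaaggatcctcattAagaaatgcggttaa
Gria2 R764G: aaggatcctcattaAgaaatgcggttaac
Gria3 R769G: aaggctcagcattaAgaacgcctgtaaac
Gria4 R765G: agggttcctcattaAgaactcctgtaaac
Gria2 Q607R: gggtgcctttatgcAgcaaggatgcgata
Grik2 Q621R: tggagctctcatgcAgcaaggttctgagc
Grik1 Q621R: tggagctctcatgcAgcaaggatcggagc
Flna Q2333R: tgtttctagtcttcAggagtcagggttaa
Residues are numbered from the start codon of the annotated transcript, signal peptide included. The windows of Grik2 Q621R and Grik1 Q621R shared 27 of 29 bases. Those of Gria2 R764G and Gria4 R765G shared 23, and those of Gria2 R764G and Gria3 R769G 21. At the R/G sites of the 3 AMPA receptor genes and the Q/R site of Flna the edited base stood next to the last base of its exon, so the bases after it come from the following exon.

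Reads stood on these sites more densely than on the rest. The median was 85 A plus G reads per library and coding site, against 13 at the other positions, and 229 of the 263 sites had at least 10 reads in every library. G made up 9.82% of all reads at the coding sites, against 0.0138% for C and 0.0116% for T, mismatches that no ADAR enzyme makes. At least 2 G reads in at least 3 libraries were found at 167 sites, which for C held at 1 site, Cdk13 K104R, and for T at none. G was read in no library at 14 sites. Their depth ranged from 183 reads at Cacna1g P2113P, which allows a level of up to 1.64%, to 2842 reads at Tcp1 K515R, which allows 0.106%. Such limits, and the intervals below, cover counting error only.

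The levels spread over the whole range, and the highly edited sites all changed a residue. With the reads of all libraries pooled, 100 sites were below 1%, 78 between 1 and 10%, 58 between 10 and 50%, 22 between 50 and 90% and 5 at 90% or more. The median was 2.47%. Of the 263 sites 194 changed a residue, or 73.8%, and 69 were synonymous. All 27 sites at 50% or more changed a residue, in 20 genes, and so did 76 of the 85 sites at 10% or more (89.4%) and 72 of the 100 below 1%. The 34 highest sites were all of this kind, and the highest synonymous one was Hist2h2ab L116L at 34.2%. No test was made, since sites of a gene share transcripts and several share a codon. Of the 27 highest sites 6 had fewer than 10 reads in some library.

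**Figure D1:**
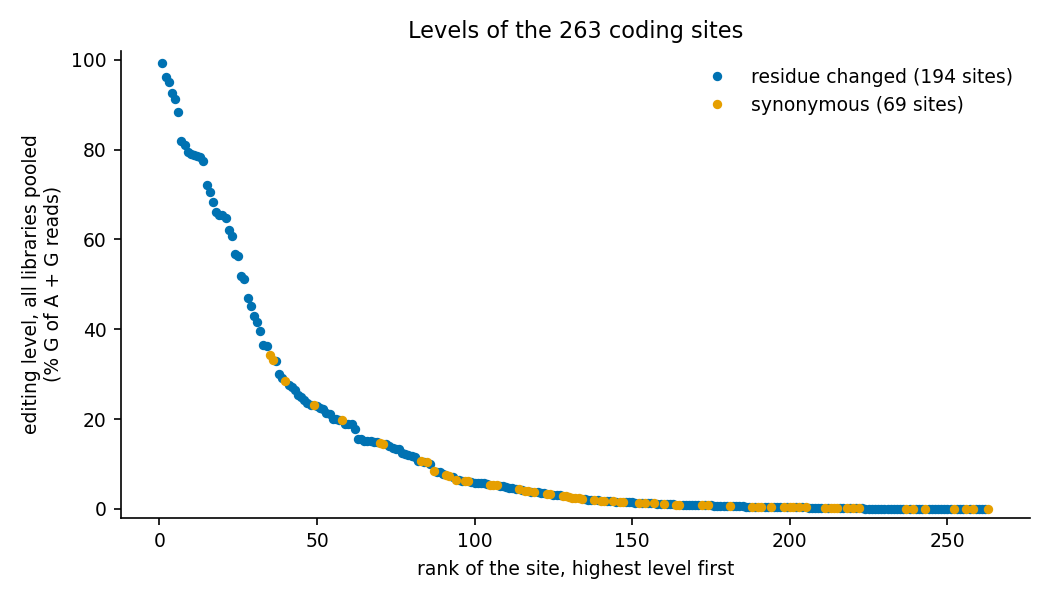
Editing level of each of the 263 coding sites (vertical axis, % G of A plus G reads, all 13 libraries pooled) against its rank (horizontal axis), with 194 sites that change a residue and 69 synonymous sites in different colours. Synonymous sites start at 34.2%, below 34 sites that change a residue.

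Coding sites held more of the extremes than sites elsewhere in transcripts. Of coding sites 10.3% were at 50% or more, against 4.96% of 3269 sites in 3′ UTRs and 5.36% of 31361 intronic sites. The share was 5.60% of 1910 sites in noncoding exons and 7.55% of 53 sites in 5′ UTRs. Outside annotated genes it came close to that of coding sites, at 9.66% of 2453 sites. At the other end 38.0% of coding sites were below 1%, against 20.6% in 3′ UTRs and 0.529% in introns. Depth moved with these shares, with medians of 85 reads per library in coding sequence, 35 in 3′ UTRs and 12 in introns, and its part in them was not tested. The most common changes among sites at 10% or more were serine to glycine (16 sites), glutamine to arginine (16), lysine to arginine (8) and isoleucine to valine (7).

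Neighbouring bases differed between highly and barely edited coding sites. A guanosine stood on the 5′ side of 4 of the 85 sites at 10% or more (4.71%) and of 28 of the 100 sites below 1%. On the 3′ side it stood at 53 of 85 (62.4%) and 41 of 100. Without Zfp397, which alone held 57 sites, the 5′ counts were 4 of 83 and 21 of 74, and the 3′ counts 51 of 83 and 34 of 74. Codon position 3 held 12 of the 85 sites and 72 of all 263.

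Among ionotropic glutamate receptor subunits, the Q/R site of Gria2 was edited nearly completely. This site, Q607R (chromosome 3, position 80706912, exon 11 of 16), sets the calcium permeability of AMPA receptors. Its level was 99.1, 99.03 and 99.6% in the P195A/+ libraries, 99.6, 97.2, 99.04 and 99.6% in P195A/P195A, 100, 99.2 and 99.7% in P195A/- and 100, 98.7 and 99.6% in wild type. The 4 genotypes overlapped, and the site lay above the 99% limit of the test. At 4 bases 3′ of it, in the next codon, the synonymous Q608Q stood at 23.0% (95% Wilson interval 21.6 to 24.5).

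The R/G sites of the AMPA receptor subunits, which precede the alternative flip and flop exons and affect recovery from desensitization, were edited in all 3 genes, and Gria3 had the highest level in each genotype. Gria2 R764G was at 71.5 ± 1.34% in P195A/+, 71.96 ± 2.40% in P195A/P195A, 68.6 ± 0.736% in P195A/- and 70.0 ± 3.37% in wild type (SD, n as above). Gria3 R769G was at 91.6 ± 0.548, 93.6 ± 1.94, 92.5 ± 0.956 and 92.4 ± 1.69% in the same order. Gria4 R765G was at 67.4 ± 14.2, 65.5 ± 8.20, 66.8 ± 2.71 and 63.0 ± 5.44%. Each mutant genotype overlapped wild type at each of the 3 sites. At Gria2 R764G the P195A/- libraries, at 67.8 to 69.1%, lay below those of P195A/P195A, at 70.2 to 75.4%, and the site did not pass in any comparison. Groups this small can separate by chance. The share of all sites that separate was not counted, so here and below a separation is only a description. The base just before, the last of the preceding leucine codon, stood in each gene at a few percent: 2.83% at Gria2 L763L, 2.84% at Gria3 L768L and 1.37% at Gria4 L764L, all pooled. Neighbouring adenosines thus differed by more than 60 percentage points in each of the 3 genes.

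Among kainate receptor subunits, Grik2 held 9 coding sites and Grik1 held 1. Those of Grik2 ranged from 0.307 to 88.5%. Y571C and I567V, in the first membrane segment, were at 88.5 and 78.6%, and the Q/R site of the pore loop, Q621R, at 79.4%. The Q/R site of Grik1, on a nearly identical window, was at 65.4% (59.3 to 70.9), from 254 reads against 1453 in Grik2. By genotype Grik1 Q621R was at 59.5 ± 11.1% in P195A/+, 67.8 ± 7.32% in P195A/P195A, 60.1 ± 18.4% in P195A/- and 74.0 ± 8.86% in wild type, with overlapping libraries.

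Voltage-gated channels and other receptors held sites of widely differing levels. I342M of the GABA-A receptor subunit gene Gabra3 was at 96.5 ± 1.86% in P195A/+, 95.2 ± 1.21% in P195A/P195A, 92.4 ± 2.55% in P195A/- and 95.5 ± 2.21% in wild type. I400V of Kcna1, a potassium channel whose edited form recovers faster from inactivation, was at 49.3, 47.1 and 44.7% in P195A/+ and 37.5, 39.1, 34.0 and 39.1% in P195A/P195A. It was at 40.9, 46.2 and 37.1% in P195A/- and 40.3, 34.7 and 45.8% in wild type. The P195A/+ libraries lay above the P195A/P195A ones, a comparison that was not tested, and overlapped those of wild type. Pooled levels were 56.7% at S2732G of Unc80, a subunit of the sodium leak channel complex, and 66.2% at Q619R of Tmem63b, a mechanically gated cation channel. In Cacna1d the codons of the calmodulin-binding IQ motif were edited to different extents, with 32.9% at I1619M, 1.66% at Q1620R and 17.8% at Y1622C.

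Htr2c, whose serotonin receptor couples less to G proteins when edited, held 5 sites within 13 bases. By genotype I157V was at 83.9 ± 0.675% in P195A/+, 85.7 ± 7.82% in P195A/P195A, 80.6 ± 6.01% in P195A/- and 74.1 ± 6.17% in wild type. I157M, in the same codon, was at 71.0 ± 3.51, 74.3 ± 7.75, 68.0 ± 8.61 and 59.2 ± 3.73% in that order. N159S was at 20.4 ± 5.31, 24.5 ± 2.92, 22.2 ± 3.90 and 23.0 ± 4.12%, and I161V at 61.2 ± 7.89, 60.3 ± 6.95, 63.6 ± 4.53 and 63.5 ± 4.57%. At I157M every P195A/+ and P195A/P195A library lay above all wild-type libraries, and the site did not pass in any comparison. The fifth, N159D, was at 3.65% pooled.

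**Figure D2:**
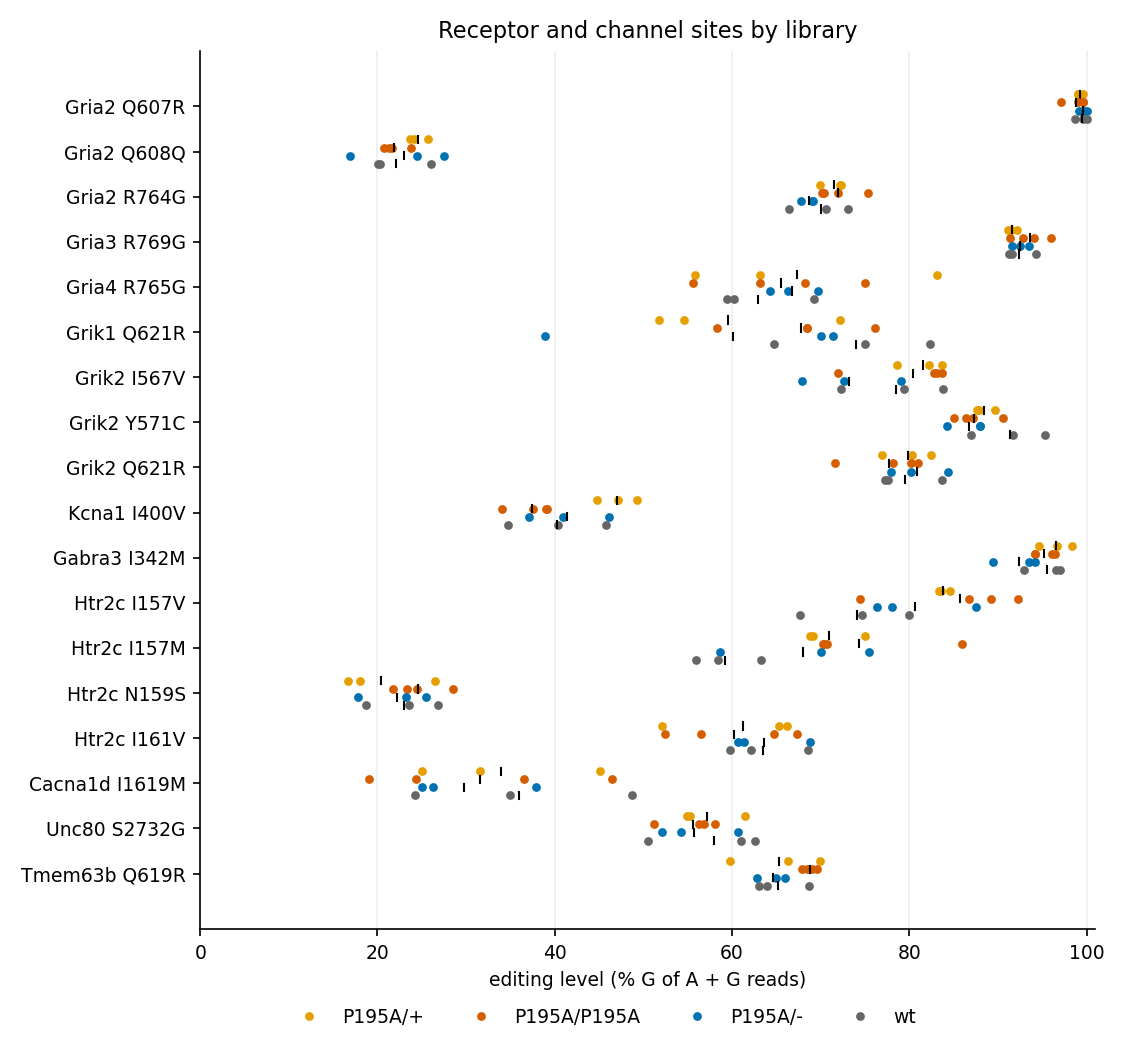
Editing level (horizontal axis, % G of A plus G reads) of 18 receptor and channel sites, a row each, with a point per library, genotypes in different colours and a black bar at each genotype mean (3, 4, 3 and 3 libraries). Every library of Gria2 Q607R is above 97%, those of Gria2 Q608Q and Htr2c N159S are below 30%, and libraries of shallow sites such as Grik1 Q621R spread widely within a genotype.

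Cytoskeletal and trafficking genes held highly and barely edited sites. K320E of Cyfip2, a part of the WAVE complex that drives actin branching, was at 77.4 ± 4.01% in P195A/+, 77.2 ± 0.563% in P195A/P195A, 79.4 ± 1.29% in P195A/- and 81.02 ± 2.82% in wild type. The P195A/+ and P195A/- libraries overlapped wild type, while those of P195A/P195A, at 76.5 to 77.7%, lay below the P195A/- and the wild-type ones. The site did not pass in any comparison. The base next to it in the same codon, K320R, was at 1.38% pooled. Flna had its Q/R site at 56.2% (51.3 to 61.0). E1258G of Cadps, which primes dense-core vesicles, was at 19.8% and I635V of the Golgi tether gene Cog3 at 24.9%. I164V of Copa, the alpha subunit of coatomer, was at 5.20%.

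Genes of RNA and DNA binding or repair held several clusters of sites. Zfp397, a zinc finger gene on chromosome 18, held 57 sites with 535 bases between the first and the last, from 0.0729 to 12.2% with a median of 1.13%. Son, a splicing cofactor, held 23 over 779 bases, from 0.0355% to 43.0% at R575G. Adarb1 held 7 over 26 bases, in exon 4 of a transcript that is not the principal one, led by S18G at 77.4%, N13S at 45.2% and V17V at 33.2%. ADAR2 is known to edit its own transcript at an alternative splice acceptor. Cdk13, a cyclin-dependent kinase gene, had Q103R at 96.2% and K96R at 78.4%, from 424 and 296 pooled reads. K95R of Igfbp7, which encodes an insulin-like growth factor binding protein, was at 82.0% from 194 reads.

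Over all coding sites the genotype means lay close together. The mean level per library was 13.96 ± 0.609% in P195A/+, 13.9 ± 0.802% in P195A/P195A, 13.1 ± 0.347% in P195A/- and 13.6 ± 0.294% in wild type. At the 130 coding sites tested below it was 20.7 ± 0.817, 20.3 ± 0.871, 19.2 ± 0.875 and 19.1 ± 0.297% in that order. There every P195A/+ library (20.1 to 21.6%) and P195A/P195A library (19.5 to 21.1%) lay above every wild-type one (18.8 to 19.3%). The P195A/- libraries (18.7 to 20.2%) overlapped wild type. These means were not tested. At the 60 sites of 10% or more with at least 10 reads in every library, the highest and lowest genotype means of a site differed by a median of 6.56 percentage points, beside a median SD within a genotype of 4.78 points. That range of means and that SD of single libraries are different measures and were not tested against each other. The highest mean was that of P195A/+ at 22 sites, of P195A/P195A at 15, of P195A/- at 10 and of wild type at 13. The lowest was that of P195A/+ at 7, of P195A/P195A at 13, of P195A/- at 20 and of wild type at 20. In the edgeR fit described below, 59.3% of all tested sites were higher in P195A/+ than in wild type, beside 57.0% in P195A/P195A and 53.0% in P195A/-. Of the 130 tested coding sites, 82, 69 and 67 were higher than in wild type in that order. In whole brain, fewer cells of a type and less RNA per cell cannot be told apart.

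Differences between genotypes were tested at 9722 sites, of which 130 were coding: sites with at least 10 reads in each library and a pooled level of 1 to 99%. Of the coding sites not tested, 98 were below 1%, 1 was above 99% and 34 had fewer than 10 reads in a library. The test was edgeR's quasi-likelihood test on edited and unedited reads, giving a log2 odds ratio, with Benjamini-Hochberg adjustment over all 9722 sites and a threshold of 0.05. The 3 comparisons with wild type share the wild-type libraries.

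In P195A/P195A against wild type 2 of the 130 coding sites passed, both higher and both synonymous, where 0.247% of all tested sites did. Chtf8 L234L (chromosome 8, position 106885604, exon 2 of 2) was at 13.4, 6.82, 13.8 and 15.4% in P195A/P195A and 1.75, 0.00 and 5.88% in wild type. Every P195A/P195A library lay above every wild-type one, and the log2 odds ratio was 2.21 ± 0.48 (SE; edgeR adjusted p = 0.00493). GENCODE M21 has 2 overlapping genes of this name, of which the site is coding in one and lies in a UTR of the other. The P195A/+ libraries were at 5.47, 10.7 and 7.20% and the P195A/- ones at 6.45, 3.70 and 7.87%. The adjusted p of edgeR was 0.0981 without wild-type replicate 1 and 0.220 without wild-type replicate 2.

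Grik2 G615G (chromosome 10, position 49244347, exon 12 of 16), 17 bases 5′ of the Q/R site, was at 6.09, 8.60, 1.67 and 9.82% in P195A/P195A and 0.00, 1.80 and 0.833% in wild type. The lowest P195A/P195A library overlapped wild type, and the log2 odds ratio was 2.84 ± 0.70 (edgeR adjusted p = 0.0229). The site had 1518 reads over all libraries and as few as 93 in a library, so its wild-type levels rest on few edited reads. With the replicate number as a block its adjusted p was 0.239. Leaving out wild-type replicate 1 gave 0.327, wild-type replicate 3 gave 0.157, and P195A/P195A replicate 1, 2 or 4 gave 0.0593, 0.0811 or 0.216. The P195A/- libraries were at 2.94, 6.19 and 0.794%. By limma and by DESeq2 no coding site passed in this comparison (13 and 9 at an unadjusted p under 0.05, beside 8.49 and 4.69% of all tested sites), and without wild-type replicate 1 none passed in edgeR.

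The next sites by p did not pass. Ccni R75G had a log2 odds ratio of 0.75 ± 0.23 (edgeR adjusted p = 0.1798). S93G of Ube2o, a ubiquitin-conjugating enzyme gene, was at 97.1, 79.3, 85.7 and 89.7% in P195A/P195A and 63.8, 71.1 and 73.2% in wild type, without overlap (log2 odds ratio 1.68 ± 0.52, edgeR adjusted p = 0.194). K292E of Mcrs1, a subunit of the INO80 chromatin remodeler, was at 52.2, 47.4, 61.8 and 48.3% in P195A/P195A and 6.25, 25.0 and 33.3% in wild type, also without overlap (1.85 ± 0.59, edgeR adjusted p = 0.224). It had 333 reads over all libraries and as few as 16 in a library. It was named for its small p in this comparison, which favours such a separation. At an unadjusted p under 0.05 stood 17 of the 130 coding sites, beside 8.18% of all tested sites. Of these 13 were higher in P195A/P195A and 4 lower, beside 6.05 and 2.13% of all tested sites. The median log2 odds ratio was 0.05 over coding and 0.15 over all tested sites.

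In P195A/+ against wild type no coding site passed in edgeR, limma or DESeq2, where 0.0411% of all tested sites passed in edgeR. At an unadjusted p under 0.05 stood 10 of 130 coding sites in edgeR, 5 in limma and 3 in DESeq2, beside 6.84% of all tested sites in edgeR, 7.11% in limma and 3.68% in DESeq2. Of the 10, 9 were higher and 1 lower in P195A/+, beside 5.26 and 1.58% of all tested sites. The smallest p belonged to Grik2 G615G, at 3.25, 3.70 and 5.50% in P195A/+ and 0.00, 1.80 and 0.833% in wild type, without overlap (log2 odds ratio 2.18 ± 0.78, edgeR adjusted p = 0.616). Ccni R75G (0.63 ± 0.24), Chtf8 L234L (1.43 ± 0.54) and K218K of the kinase gene Hipk2 (2.53 ± 1.09) followed. S2331G of Flna had 5 edited of 105 reads in P195A/+, 8 of 94 in P195A/P195A and 3 of 88 in P195A/-, against 0 of 98 in wild type, which allows up to 3.06%. The median log2 odds ratio was 0.22 over coding and 0.19 over all tested sites.

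In P195A/- against wild type no coding site passed in edgeR, limma or DESeq2, where 0.0103% of all tested sites passed in edgeR. At an unadjusted p under 0.05 stood 6 of 130 coding sites in edgeR, 6 in limma and 0 in DESeq2, beside 4.4% of all tested sites in edgeR, 5.77% in limma and 2.32% in DESeq2. Of the 6, 3 were higher and 3 lower in P195A/-, beside 2.51 and 1.89% of all tested sites. The smallest p belonged to M620V of Grik2, at 0.746, 6.38 and 0.813% in P195A/- and 4.39, 10.3 and 3.36% in wild type, which overlapped (log2 odds ratio -1.37 ± 0.61, edgeR adjusted p = 0.993). Copa I164V was at 6.63, 9.74 and 5.98% in P195A/- and 3.03, 4.26 and 6.07% in wild type (0.75 ± 0.36). Cacna1d Q1620R had 4 edited of 114 reads in P195A/- and 0 of 115 in wild type, which allows up to 2.61%. A477A of Cramp1l (-1.78 ± 0.83) and Grik2 G615G (1.76 ± 0.83) were the others of the 5 smallest. The median log2 odds ratio was 0.01 over coding and 0.05 over all tested sites.

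In P195A/- against P195A/P195A 1 of the 130 coding sites passed, and it was lower in P195A/-, where 0.113% of all tested sites passed. Ccni R75G (chromosome 5, position 93189584, exon 3 of 7), which turns an arginine codon of cyclin I into glycine, was at 0.713, 1.95 and 2.05% in P195A/- and 4.74, 3.37, 4.02 and 4.24% in P195A/P195A. The groups did not overlap, and the log2 odds ratio was -1.38 ± 0.26 (edgeR adjusted p = 0.000785). The P195A/+ libraries stood at 4.16, 2.94 and 4.28%, overlapping P195A/P195A, and the wild-type ones at 2.55, 2.38 and 2.49%, between P195A/- and P195A/P195A. With 561 or more reads in every library Ccni R75G was the most deeply read of the named sites. Without P195A/- replicate 1 the adjusted p of edgeR was 0.239, and by limma and DESeq2 no coding site passed (6 and 5 at an unadjusted p under 0.05, beside 7.89 and 4.29% of all tested sites).

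Adar RNA, as CPM after TMM scaling of the rounded estimated counts, was 201.3 ± 4.28 in P195A/- and 322.7 ± 28.6 in P195A/P195A, with 239.8 ± 6.63 for P195A/+ and 180.1 ± 13.3 in wild type. Ccni RNA was 290.6 ± 36.2 CPM in P195A/- and 384.3 ± 48.4 in P195A/P195A, with 473.8 ± 29.8 for P195A/+ and 435.9 ± 18.2 in wild type. Adarb1 RNA was between 303.8 and 316.0 CPM in each genotype mean. The 6 olfactory bulb markers, all measured, summed to 60.3 to 70.4 CPM in P195A/- libraries against 87.7 to 108.3 CPM in P195A/P195A ones, with 61.7 to 66.9 for P195A/+ and 81.3 to 86.5 for wild type. All 6 had a lower mean in P195A/- than in P195A/P195A. Tbr1 was the largest part of each sum, with means of 45.7 and 52.3 CPM in these genotypes. Cdhr1 differed more, at 5.91 and 22.3 CPM, with 5.10 for P195A/+ and 13.97 for wild type. Their part in these levels was not tested. At an unadjusted p under 0.05 stood 12 of the 130 coding sites, beside 7.58% of all tested sites. Of the 12, 5 were higher and 7 lower in P195A/-, beside 2.4 and 5.18% of all tested sites. The next by p were Chtf8 L234L (log2 odds ratio -1.17 ± 0.44), Zfp397 K388K (1.34 ± 0.52) and Son P407P (-1.42 ± 0.56). Zfp397 Y334C, also among the 5 smallest, had 4 edited of 289 reads in P195A/- and 0 of 398 in P195A/P195A, which allows up to 0.754%.

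**Figure D3:**
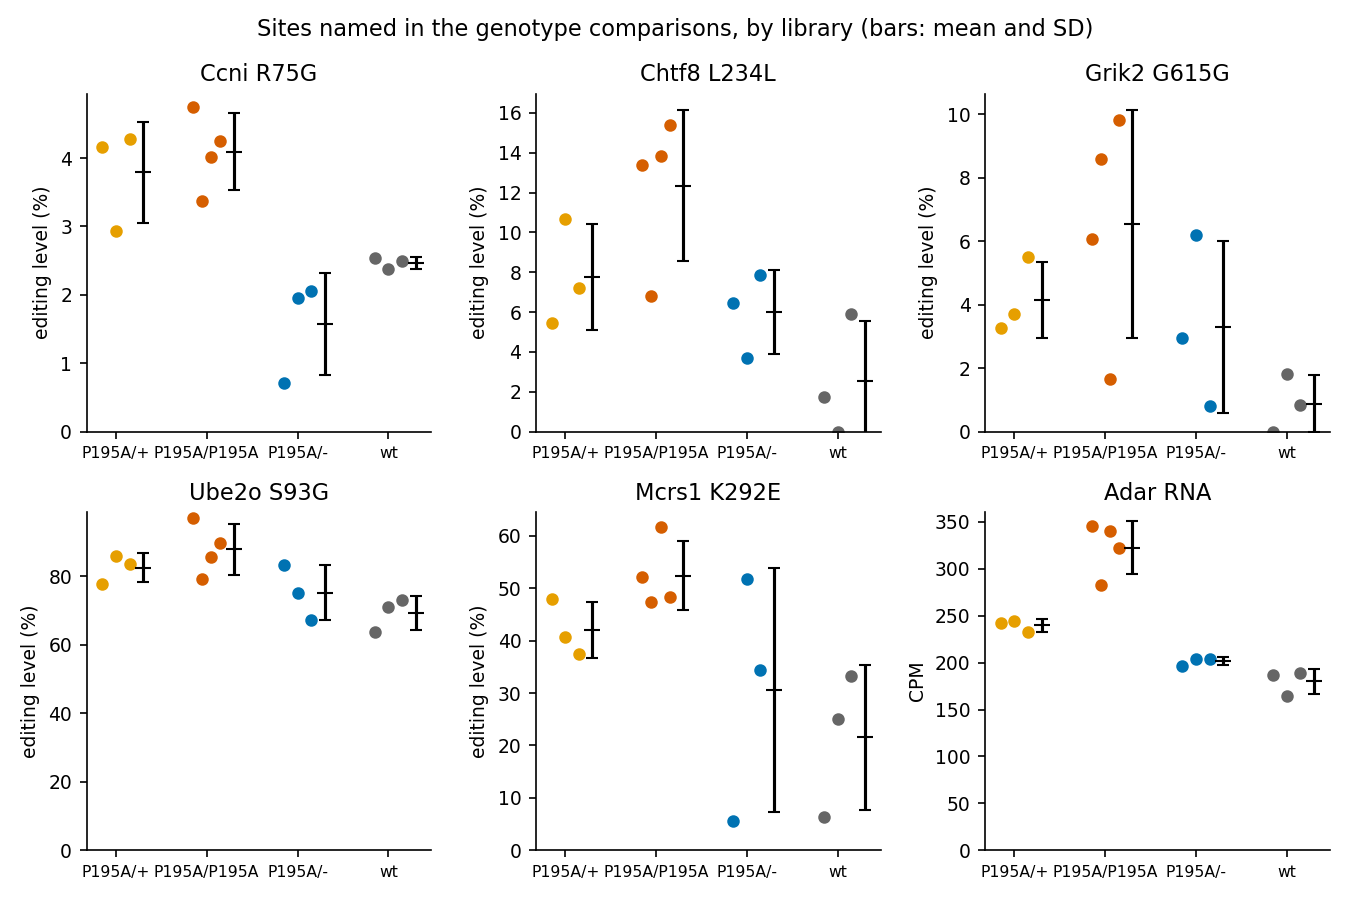
Editing level (%) of Ccni R75G, Chtf8 L234L, Grik2 G615G, Ube2o S93G and Mcrs1 K292E, and Adar RNA (CPM), a point per library by genotype, with the mean and SD beside the points (bars end at 0 where the SD reaches below it). Ccni R75G stands at 2.05% or lower in P195A/- and at 3.37% or higher in P195A/P195A, and the wild-type libraries of Ube2o S93G and Mcrs1 K292E lie below all P195A/P195A libraries. Neither Ube2o S93G nor Mcrs1 K292E passed in any comparison.

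Blcap, whose first codons are edited, and Neil1, a DNA glycosylase gene whose K242R edit is known to be made by ADAR1, were edited at lower levels or read less deeply. Blcap Q5R was at 23.1, 38.6 and 28.6% in the P195A/+ libraries, and at 38.7, 34.5, 34.8 and 39.3% in P195A/P195A. P195A/- libraries had 21.4, 13.5 and 33.3%, against 9.38, 25.0 and 18.2% in wild type. Its P195A/P195A libraries lay above all wild-type and P195A/- ones, and the site did not pass (edgeR adjusted p = 0.397 against wild type and 0.667 for P195A/- against P195A/P195A). Blcap Y2C and K15R were at 36.3 and 18.9% pooled. Neil1 K242R had as few as 6 reads in a library, so its reads were pooled: 4.55% (1.26 to 15.1) in P195A/+, 23.8% (13.5 to 38.5) in P195A/P195A, 7.32% (2.52 to 19.4) in P195A/- and 2.86% (0.506 to 14.5) in wild type. All 4 P195A/P195A libraries, at 16.7, 23.1, 28.6 and 22.2%, lay above the wild-type ones, at 10, 0.00 and 0.00%. In the fit with a minimum of 3 reads the log2 odds ratio of P195A/P195A against wild type was 3.00 ± 1.29 (edgeR adjusted p = 0.869). S367G of Azin1, an antizyme inhibitor gene, was at 1.47% pooled, and S387G of the splicing factor gene Nova1 at 30.0% from 210 reads.

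**Figure D4:**
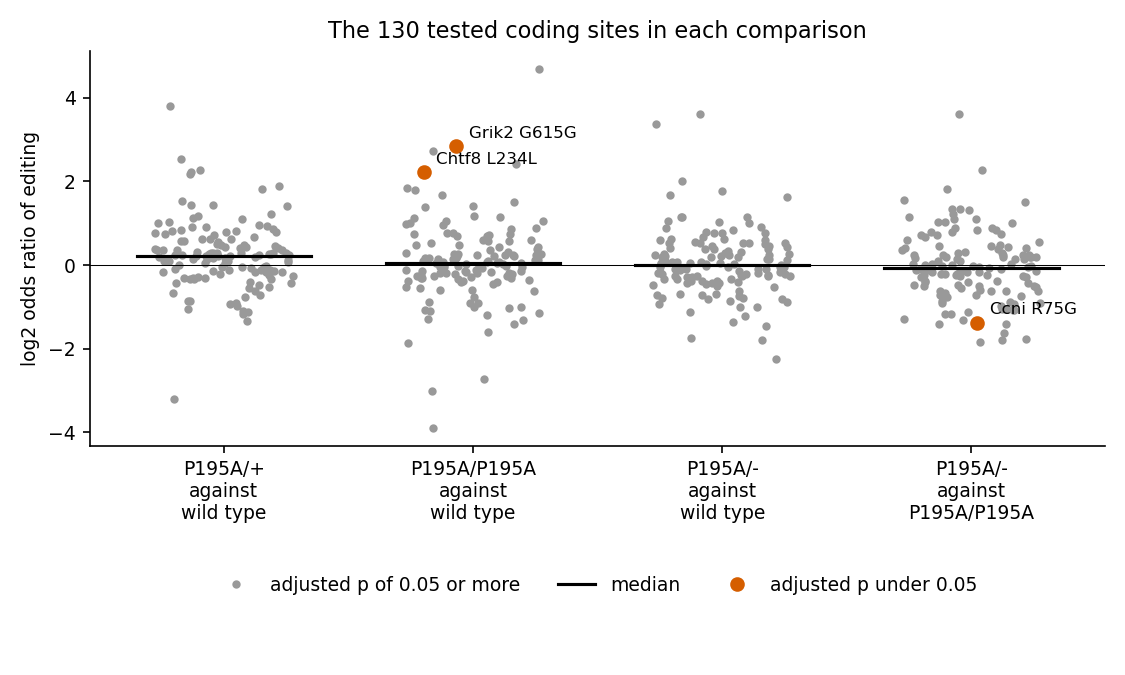
Log2 odds ratio of editing (vertical axis) of the 130 tested coding sites in each of the 4 comparisons, a point per site with a line at the median, and larger coloured points for sites with an adjusted p under 0.05. Medians lie between -0.08 and 0.22, and 2 points above and 1 below zero carry names: Chtf8 L234L, Grik2 G615G and Ccni R75G.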

How the data were processed

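RNA of whole brain was sequenced in 13 mice. Per the file headers, the authors counted A, C, G and T reads (base counts) at listed editing positions with JACUSA2 2.0.0-RC5, strand-specific, without duplicate reads, with a minimum coverage of 3. The authors deposited estimated counts per gene. The submitters' processing notes name fastp 0.19.5 for trimming, Salmon, edgeR and mm10; an aligner, a Salmon version and an index are not named in what was used here. CPM values were computed here from the deposited table. Base columns were matched to libraries through their headers, and checked against single-library tables, where 99.979% or more of sites were equal.

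Sites were joined over the 3 comparisons with wild type (39420 positions, 39309 with reference A) and annotated with GENCODE M21; codons were read in the annotated frame, and sequences come from its transcripts. edgeR 4.0.16 (R 4.3.3) fitted 9722 sites and 13 libraries, with a coefficient per library and an edited-fraction coefficient per genotype. Its common dispersion was 0.0227, with spread shared fully over sites, so p-values at deep sites can understate the spread between animals. Limma 3.58.1 worked on log2 odds with 0.5 added to each count, DESeq2 1.42.0 on the same counts. Estimated counts were rounded and scaled by TMM. Levels are given as mean ± SD, or pooled with 95% Wilson intervals. The edgeR and limma fits were also run on simulated reads with the same spread between libraries at every site. That run cannot show whether the spread is understated at single sites. Python 3.11.15 (numpy 2.4.6, pandas 2.3.3, statsmodels 0.14.6, matplotlib 3.10.9) was used.

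Named sites are, in 28 genes known for recoding (all with a coding site, 121 in all), the coding site with the most reads and those at 10% or more; per comparison the passing sites or the 5 smallest p; the 5 highest sites elsewhere with 100 or more reads; and the 5 deepest synonymous sites at 10% or more. This gave 77 sites in 37 genes, 59 of them tested; others were named after their values were seen, and sequences of related genes were added. Members and lists were chosen with earlier results of these data known. The replicate numbers do not mark litters or days in the labels. No 2 libraries shared base counts at more than 2.56% of sites. Replicates are separate animals by their labels. Some coding sites are not reported here.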

Additional observations from a re-analysis of the deposited data

Results flagged for a closer look

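In the 4 P195A/P195A libraries, 107 values of this text (levels of named sites, their genes' CPM and the mean level) were checked for a library far from the other 3, and 8 were found; chance gives about 1 in 20. Grik2 I567V was lowest in replicate 2, at 71.9% beside 82.8 to 83.7%. Htr2c I157M was highest in replicate 3, at 85.9% beside 70.2 to 70.7%, and Cnnm1 S240G in the same library, at 66.7% beside 59.1 to 60.0%. Mfn1 A332A was highest in replicate 4, at 15.2% beside 8.63 to 9.35%. At 3 sites the other libraries had no edited read: Cog3 K640R at 2.86% and Son E377G at 0.481% in replicate 1, and Adarb1 R10R at 2.33% in replicate 3. A site is always flagged when only 1 library has an edited read, so the rate of 1 in 20 does not hold for these 3. Cadps RNA was highest in replicate 2, at 504.5 CPM beside 463.9 to 467.8 CPM.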

How the results depend on the processing

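No log2 odds ratio of the 20 site and comparison pairs with the smallest p changed sign under any alternative. The pairs were picked by p from the same reads, so a change of sign was unlikely from the start. In P195A/P195A against wild type the 2 passing coding sites became 1 with a minimum of 3 reads, without the limit on pooled level, and with the replicate block, and 0 by limma and by DESeq2; leaving out a replicate gave 0 to 2. In P195A/- against P195A/P195A the 1 passing site became 0 without the limit on pooled level, by limma and by DESeq2, and leaving out a replicate gave 0 to 1. The replicate block changed no other count. Same-numbered libraries of different genotypes had correlations of -0.03 to 0.02 in their deviations from the group means, other pairs -0.03 to 0.03, and 3 of 13 libraries correlated best with their own number. Pooling reads within a genotype, an alternative chosen after seeing the data, moved no level of a named site by more than its SD. With a minimum of 20 reads 3 sites passed in P195A/P195A, Ccni R75G being the added one. The mean level over coding sites moved in all 4 genotypes with the choice of sites. In the order P195A/+, P195A/P195A, P195A/- and wild type it was 12.3, 12.1, 11.5 and 11.4% with a minimum of 10 reads in every library and 11.03, 10.8, 10.6 and 10.5% with 20. It was 10.02, 9.79, 9.87 and 9.59% with reads pooled over sites and 12.9, 12.9, 12.1 and 12.4% in principal transcripts. Without sites above 99% or with no edited read it moved by more than the SD in P195A/- (13.5%) and wild type (14.03%). Leaving out a replicate moved no mean beyond the SD, with 13.6 to 14.2% in P195A/+, 13.7 to 14.3% in P195A/P195A, 12.9 to 13.3% in P195A/- and 13.4 to 13.7% in wild type. With 5 edited reads in 3 libraries 103 sites, not 167, stood above the mismatch limit. Depth limits the 34 sites with fewer than 10 reads in a library.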

Other observations

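Several genes outside the list of known recoding genes held edited codons, here named after their values were seen. Cnnm1, of a family of metal transporters, had 4 coding sites, all at 10% or more, from 22.3% at Q161R to 60.7% at S240G. The kainate receptor subunit gene Grik5 had N887D at 25.4%, N887S in the same codon at 11.8% and K889R at 23.7%. Q124R of the metabotropic glutamate receptor gene Grm4 was at 15.5% from 1770 reads, I328V of the mitofusin gene Mfn1 at 19.9% from 1870 reads, and S1973G of the nucleoporin gene Nup214 at 23.1% from 671 reads. S2052G of Speg, a kinase gene known from striated muscle, was at 91.3% from 206 reads.

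Of the coding sites, 33 pairs stood at neighbouring positions. In Mcrs1 K292E and K292R, of the same codon, were at 39.6 and 0.906%, and in Cog3 I635V and the base before it, E634E, at 24.9 and 2.53%. In Gria2 the codon after the Q/R site had Q608Q at 23.02% and Q608R at 0.177%.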
